A study of Mus musculus with 4 samples.

Results

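The Hox genes are the homeobox transcription factor genes that lie in the HoxA, HoxB, HoxC and HoxD clusters, on mouse chromosomes 6, 11, 15 and 2. They were examined here on microarrays of spinal cord and duodenum from mice with or without inositol hexakisphosphate kinase 2 (IP6K2). The members were taken from a fixed list of gene symbols matched through RefSeq accessions to the probes, and 38 genes were found among the 32585 genes or transcript identifiers on the array, 10 in HoxA, 10 in HoxB, 9 in HoxC and 9 in HoxD. RNA came from male mice aged 20 weeks that had eaten CE-2 chow and then, for 1 week, the purified diet iVid-neo, before a fast of 48 h. The 4 groups were WT spinal cord, KO spinal cord, WT duodenum and KO duodenum, in which WT was a littermate and KO carried a deletion of the kinase-domain exon of Ip6k2. Each group was 1 Cy3 array, and all 4 arrays lay on 1 slide. How many mice gave the RNA of each array, and which segments of the spinal cord were taken, are not given in the sources used here. The study's methods place the duodenum sample just below the stomach.

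Hox genes are numbered in paralogue groups 1 to 13 by their place in the cluster, and genes at the low-numbered end are switched on earlier and closer to the head of the embryo than those at the high-numbered end. The combination of Hox proteins in a cell records its position along the head-to-tail axis, and neurons of the hindbrain and spinal cord keep much of this code into adult life. In the gut the same genes are known mainly from the mesenchyme and smooth muscle layer, whereas intestinal epithelial identity rests on the ParaHox factors Cdx1, Cdx2 and Pdx1.

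Values below are the scanner's processed signal, in arbitrary units, in the order WT spinal cord, KO spinal cord, WT duodenum, KO duodenum. The arrays differed in overall brightness. Their 75th percentiles were 905, 971, 68.0 and 323, so every difference is given on the log2 scale after subtracting each array's 75th percentile. A gene counts as detected where the scanner called its probe well above background, which held for 75.5, 76.1, 51.8 and 65.6% of all genes on these arrays. The WT duodenum array was thus the dimmest and detected the fewest genes. Each array has no replicate, so the error available within a tissue is the technical SD, taken from 399 probes spotted repeatedly (median 10 spots) on each array, and it covers neither the animal nor the RNA preparation. The tissue labels fitted their markers. Of the neuronal markers 10 of 10 were called higher in the spinal cord by limma and of the duodenal epithelial markers 10 of 10 higher in the duodenum. Of 9 forebrain and midbrain markers, 4 and 5 were detected on the spinal cord arrays, at summed levels of 0.309 and 0.325 times the 75th percentile signal. Ip6k2 read 452, 1320, 139 and 572. On the scaled values it was 1.45 higher on the KO than on the WT spinal cord array and 0.21 lower in the KO duodenum, on the log2 scale. The spinal cord value goes against the label, and where its probe lies relative to the deleted exon is not known here, so genotype names below are those of the labels.

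The spinal cord arrays detected nearly the whole Hox complement and the duodenum arrays only part of it. Hox genes were detected in 33 and 34 of 38 cases on the WT and KO spinal cord arrays, and in 11 and 17 of 38 on the WT and KO duodenum arrays. A group of 15 members was detected on both spinal cord arrays and on neither duodenum array, 39.5% of the members, where 12.1% of all genes showed that pattern. Another 10 members were detected on all 4 arrays: Hoxa3, Hoxa5, Hoxa7, Hoxa9, Hoxb2, Hoxb3, Hoxb4, Hoxb5, Hoxb6 and Hoxc4. Of these, 9 belong to groups 2 to 7. Hoxa9 and Hoxb3 count by the brighter of their 2 probes, and the other probe of each was not detected on the WT duodenum array. Over all 32585 genes or identifiers, 16190 were detected on all 4 arrays. Among the 11 members of groups 1 to 4, 10 were detected on each spinal cord array and 5 and 8 on the WT and KO duodenum arrays. Among the 11 of groups 5 to 8 the spinal cord arrays detected all 11 and the duodenum arrays 4 and 8, and among the 16 of groups 9 to 13 the counts were 12 and 13 in the spinal cord and 2 and 1 in the duodenum. With borders set after the values were seen, the 17 members of groups 2 to 7 were all detected on both spinal cord arrays, and 9 and 15 of them on the WT and KO duodenum arrays. The 19 members of groups 8 to 13 were detected in 15 and 16 cases in the spinal cord and in 2 and 2 in the duodenum. Of the 2 members of group 1, Hoxd1 was detected on both spinal cord arrays and neither Hoxd1 nor Hoxb1 on a duodenum array. In whole tissue, fewer cells expressing a gene and less RNA per cell cannot be told apart.

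**Figure D1:**
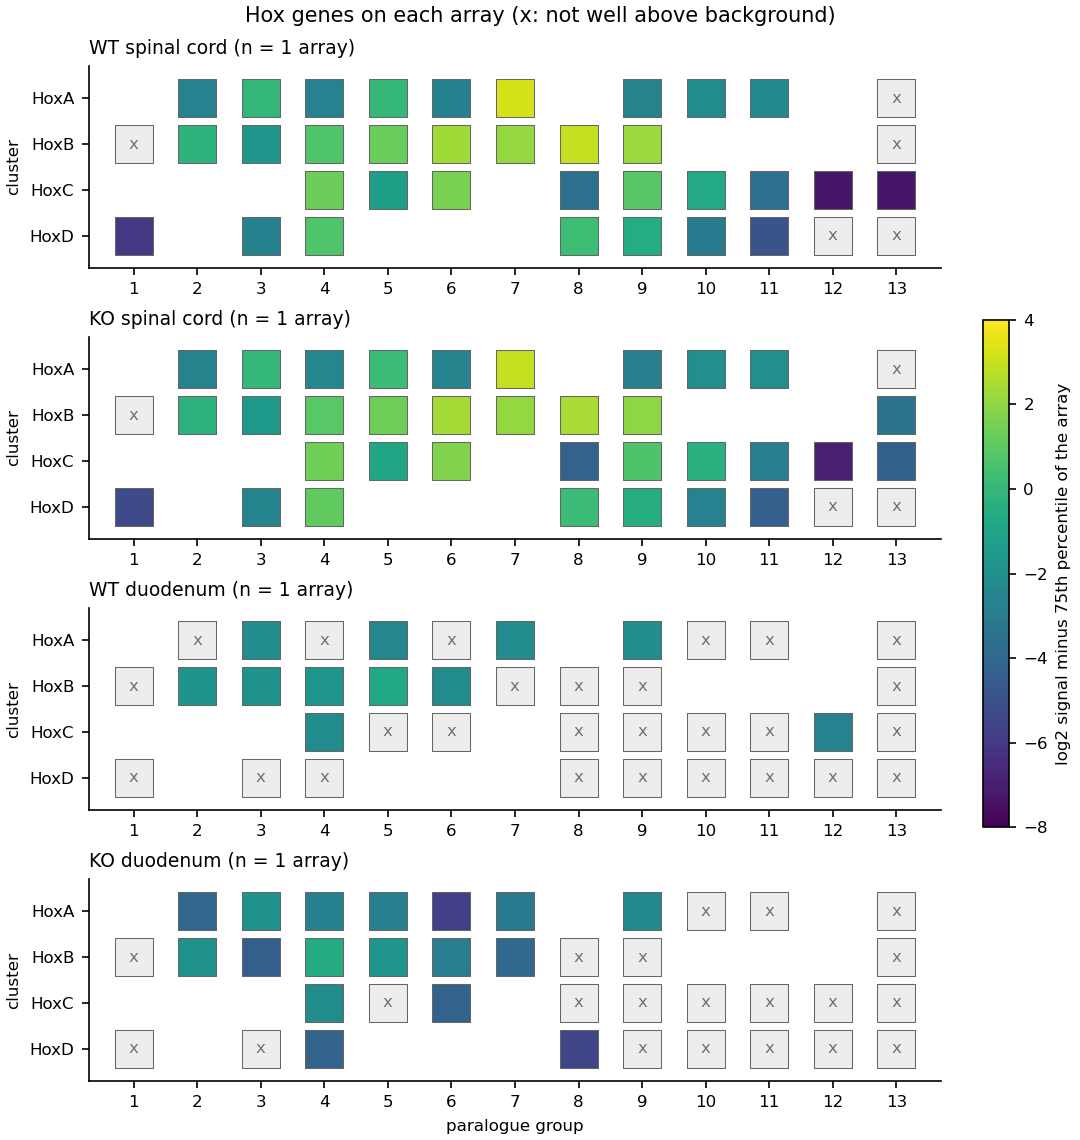
Each square is a Hox gene, placed by cluster (rows) and paralogue group (horizontal axis), on each of the 4 arrays (panels, 1 array each). Colour is the log2 signal minus the array's 75th percentile, and grey squares with a cross were not well above background. Crosses fill most of groups 8 to 13 in both duodenum panels, where 2 of 19 members were detected on each array.

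The promoter stretches of 3 members are shown as examples of 3 of the patterns seen: Hoxb4 was detected on all 4 arrays, its cluster neighbour Hoxb8 on the spinal cord arrays alone, and Hoxd13 on no array. They are the 250 bases before the RefSeq start (build GRCm38.p6), 5′ to 3′ on the strand of the gene, with matches to 7 motifs on either strand in capitals. The motifs searched were TATAAA (the TATA box), GGGCGG (the GC box), CCAAT (the CCAAT box), TGACAG (a Meis site, bound by Meis and Prep proteins), TAATTA (a homeodomain core), TTTATG (a caudal motif, bound by Cdx and high-numbered Hox proteins) and AGGTCA (a nuclear receptor half-site, read by retinoic acid receptors among others), and overlapping matches were counted.
Hoxb4 (chr11:96318017-96318266, plus strand): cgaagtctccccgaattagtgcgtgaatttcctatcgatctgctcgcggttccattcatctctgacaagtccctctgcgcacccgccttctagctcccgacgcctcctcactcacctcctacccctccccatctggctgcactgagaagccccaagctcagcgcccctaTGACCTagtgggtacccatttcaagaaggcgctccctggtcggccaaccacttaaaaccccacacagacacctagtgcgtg
Hoxb8 (chr11:96281655-96281904, plus strand): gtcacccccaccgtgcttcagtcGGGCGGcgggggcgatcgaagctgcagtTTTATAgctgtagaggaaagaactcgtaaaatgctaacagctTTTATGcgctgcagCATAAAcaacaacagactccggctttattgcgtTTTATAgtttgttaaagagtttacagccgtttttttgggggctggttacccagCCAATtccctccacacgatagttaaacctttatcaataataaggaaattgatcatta
Hoxd13 (chr2:74667975-74668224, plus strand): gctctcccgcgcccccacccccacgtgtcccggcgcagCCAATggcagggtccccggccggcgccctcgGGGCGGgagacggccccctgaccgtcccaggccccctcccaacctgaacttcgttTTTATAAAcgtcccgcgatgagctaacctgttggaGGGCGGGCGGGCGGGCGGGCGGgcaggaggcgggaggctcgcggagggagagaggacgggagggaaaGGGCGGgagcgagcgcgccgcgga
The Hoxb4 stretch held 14 CpG dinucleotides and 1 receptor half-site, and no match to the other motifs. The Hoxb8 stretch held 12 CpG, with 2 TATA box and 2 caudal motif matches and 1 each of the GC and CCAAT boxes. The Hoxd13 stretch was the richest of these in CpG, with 31, and held 7 GC box, 2 TATA box and 1 CCAAT box matches. Promoter entries were found for 22 of the 38 members (24 windows). The median Hox window held 12.5 CpG, where the median of all 32851 windows was 6. The TATA box was in 4 of the 24 Hox windows and in 12.4% of all windows, the caudal motif in 5 and 10.8%, and the receptor half-site in 6 and 14.0%. The CCAAT box was in 14 Hox windows and 33.8% of all, the GC box in 10 and 32.7%, the Meis site in 2 and 15.9%, and the homeodomain core in 2 and 4.84%. These are matches of letters, and no binding was measured.

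The tissues were compared by fitting tissue and genotype together over the 4 arrays with limma. No tissue had replicate arrays of the same genotype. The spread in this fit is therefore how far the tissue difference of the WT pair departs from that of the KO pair. Of the 38 members, 33 passed the filter (well above background on at least 2 of 4 arrays). By an adjusted p below 0.05, 28 of them were higher in the spinal cord and 1, Hoxc12, was higher in the duodenum. Over all 24973 genes tested, 26.5% were called higher in the spinal cord and 30.1% higher in the duodenum. The median difference of the fitted members was 3.57 on the log2 scale in favour of the spinal cord, or 2.57 with bounds in place of values not well above background, against -0.07 for all genes fitted and -0.53 for the 16190 genes detected on all 4 arrays. After scaling, 29 of the 33 had both spinal cord values above both duodenum values. The same count was not taken over all genes, so 29 cannot be set against a general share. By paralogue group the calls towards spinal cord were 8 among the 11 members of groups 1 to 4, 11 of 11 in groups 5 to 8, and 9 of 16 in groups 9 to 13.

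These adjusted p-values rest on 1 residual degree of freedom. The estimated prior degrees of freedom were infinite, so probes of like brightness shared 1 spread. The p-values measure the spread between these arrays only. Where a fold is given as "at least", the adjusted p beside it is that of the limma coefficient. That coefficient was fitted to all values as read, including those not well above background, and the bound itself was not tested. With normexp background correction 14 members were called higher in the spinal cord, and 10 members kept the call under every alternative that could fit them and without each array in turn: Hoxa7, Hoxb6, Hoxb7, Hoxb8, Hoxb9, Hoxc6, Hoxc9, Hoxc10, Hoxd4 and Hoxd8.

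**Figure D2:**
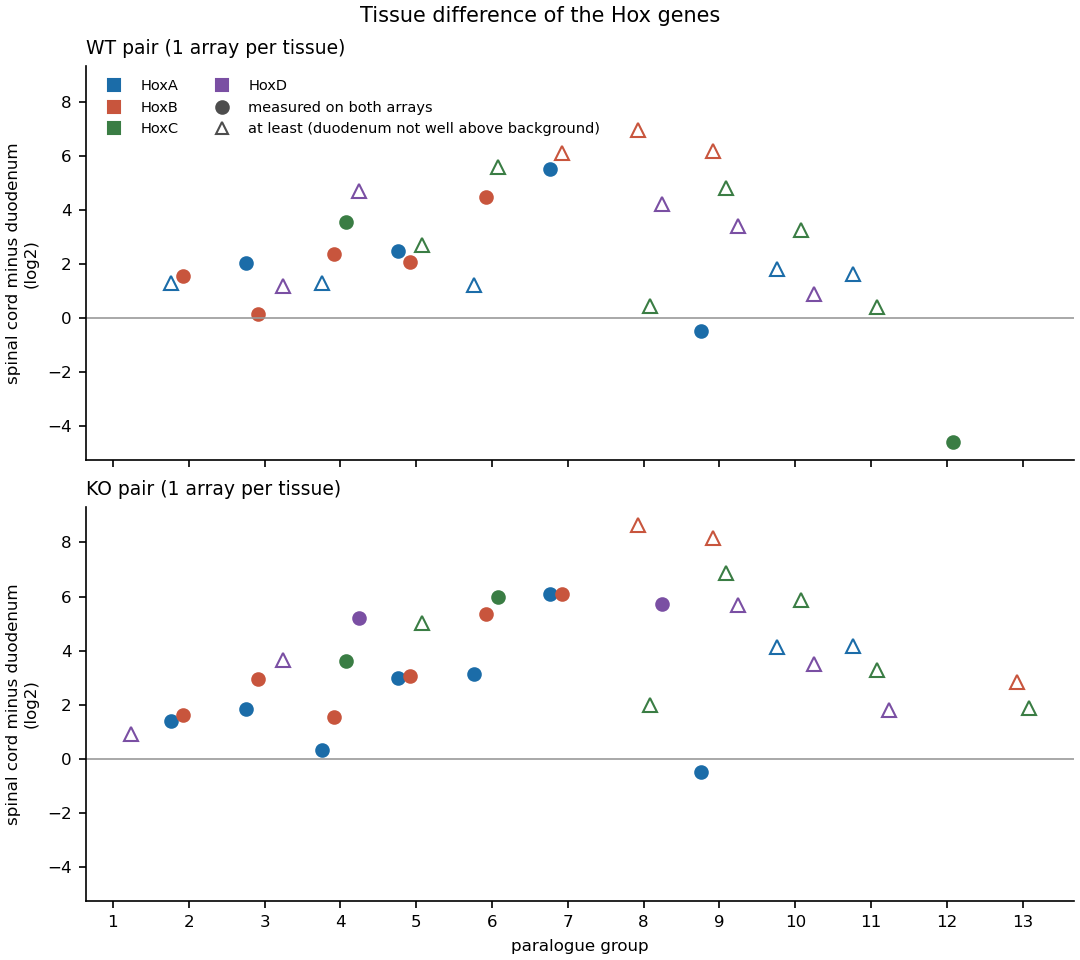
Spinal cord minus duodenum on the log2 scale (vertical axis) for each Hox gene, by paralogue group (horizontal axis) and cluster (colour), in the WT pair and the KO pair of arrays. Filled circles were measured on both arrays and open triangles are lower bounds; genes with no bound above 0 or not detected in the pair are not drawn. The lower bound of Hoxb8 reached 6.95 in the WT pair and 8.64 in the KO pair.

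The low-numbered genes, groups 1 to 4, are known for patterning the hindbrain, the pharyngeal arches and the neck. They showed the smallest tissue differences, with a median of 1.77 on the log2 scale over the 10 fitted. Hoxb1, which specifies a hindbrain segment, was not detected on any array, and in each array 0 of its repeated spots were well above background. Hoxd1, known from pain-sensing neurons in the mouse, read 13.1 and 24.9 in the spinal cord and 1.30 and 1.31 in the duodenum. It was detected in the spinal cord alone and was not called (1.13 ± 1.01, SE, adjusted p = 0.347).

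Hoxa2, which patterns the hindbrain and second pharyngeal arch, read 141 and 157 in the spinal cord and 3.58 and 19.9 in the duodenum, where it was detected on the KO array alone. It was at least 2.54-fold higher in the spinal cord (adjusted p = 0.0256). Hoxb2, a hindbrain gene, read 763, 805, 19.8 and 85.8 and was 1.59 ± 0.43 higher in the spinal cord (adjusted p = 0.000553). Both spinal cord values stood above both duodenum values for either gene after scaling, and the WT and KO pairs gave like differences for Hoxb2, 1.54 and 1.64.

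Hoxa3, needed for the thymus and parathyroid, read 862, 971, 15.7 and 89.9. It was 1.94 ± 0.43 higher in the spinal cord (adjusted p = 1.66e-05). Hoxb3 was measured by 2 probes that disagreed. The brighter read 280, 342, 19.1 and 14.7 and gave a tissue difference of 1.55 ± 0.51 (adjusted p = 0.00517), and the other read 310, 321, 1.89 and 15.8 and gave 3.19 (adjusted p = 1.23e-07). Hoxd3 read 131 and 166 in the spinal cord against 1.06 and 1.09 in the duodenum, where it was not detected, and was at least 5.40-fold higher in the spinal cord (adjusted p = 4.97e-08).

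Group 4 marks the hindbrain border and the neck. All 4 of its genes were detected in both spinal cord arrays and in the KO duodenum, and Hoxb4 and Hoxc4 in the WT duodenum as well. Hoxa4 read 141, 179, 4.16 and 48.0 and did not pass the test (0.83 ± 0.56, adjusted p = 0.202). Hoxb4, also known from blood stem cells, read 1461, 1784, 21.3 and 203 and was 1.96 ± 0.39 higher in the spinal cord (adjusted p = 2.64e-06). Hoxc4 read 2221, 2543, 14.4 and 69.4, with a difference of 3.57 ± 0.40 (adjusted p = 7.2e-18) that was nearly equal in the WT pair (3.54) and the KO pair (3.61). Hoxd4 had the largest fitted difference of the group. It read 1484 and 2015 in the spinal cord and 0.966 and 17.9 in the duodenum, was detected on 1 of the 2 duodenum arrays, and was at least 31.2-fold higher in the spinal cord (adjusted p = 1.81e-33).

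Groups 5 to 8 are known for the position of the forelimb and the brachial and upper thoracic cord. All 11 members were detected on both spinal cord arrays and all were called higher there, with a median difference of 4.91. Hoxa5, which also acts in the lung and gut mesenchyme, read 894, 1108, 12.2 and 46.2 and was 2.73 ± 0.44 higher in the spinal cord (adjusted p = 2.59e-09). Hoxb5, a gene of the gut wall and enteric nerve cells too, read 2198, 2463, 39.0 and 97.8 with a difference of 2.57 ± 0.39 (adjusted p = 1.92e-10). Hoxa5 and Hoxb5 were thus measurable in both tissues. Their paralogue Hoxc5 was not detected in the duodenum. It read 374, 518, 1.60 and 5.24 and was at least 14.7-fold higher in the spinal cord (adjusted p = 1.03e-13).

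In group 6, Hoxb6 read 4363, 5124, 14.9 and 41.5 and was 4.91 ± 0.39 higher in the spinal cord (adjusted p = 1.26e-34). Hoxc6, which takes part in choosing the motor neurons of the forelimb, read 2705, 3257, 3.44 and 17.1, was detected on 1 of the 2 duodenum arrays, and was at least 54.7-fold higher in the spinal cord (adjusted p = 5.72e-40). Hoxa6 read 134, 163, 3.56 and 6.17 and was at least 4.54-fold higher (adjusted p = 0.000803), likewise with 1 duodenum array detected. In group 7, Hoxa7 gave 8577, 7591, 14.3 and 37.4, a difference of 5.79 ± 0.38 (adjusted p = 7.08e-50) with all 4 arrays detected. Its value was thus 55.2-fold higher in the spinal cord as measured, and Hoxb7, at 3897, 4086, 1.01 and 20.0, was at least 68.1-fold higher (adjusted p = 5.54e-55).

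Group 8 was the lowest-numbered at which the WT duodenum array detected no gene, apart from group 1. Hoxb8, known from the dorsal horn and from myeloid cells, read 7065 and 5207 in the spinal cord and 1.07 and 3.46 in the duodenum, and was at least 222-fold higher in the spinal cord (adjusted p = 1.28e-79). Of the bounds among the members this was the largest. Hoxd8 read 1060, 1084, 3.23 and 6.86, was detected on the KO duodenum array, and was at least 31.2-fold higher (adjusted p = 4.3e-23). Hoxc8, which marks motor pools at the lower end of the brachial cord, read 78.0, 52.5, 1.04 and 1.06 and was at least 2.35-fold higher in the spinal cord (adjusted p = 0.000474).

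Groups 9 to 13 are known for the thoracic, lumbar and sacral cord, the hind limb and the urogenital tract, and 10 of their 16 members were detected on both spinal cord arrays and neither duodenum array. Hoxb9 read 4162, 3721, 0.979 and 3.64 and was at least 144-fold higher in the spinal cord (adjusted p = 1.1e-63). Hoxc9, which sets thoracic motor neuron identity, read 1609, 1507, 0.961 and 0.948 and was at least 57.0-fold higher (adjusted p = 3.17e-41). Hoxd9 read 599, 676, 1.07 and 2.17 and was at least 23.3-fold higher (adjusted p = 1.15e-21). These 3 genes had no duodenum array well above background. Hoxa9, a regulator of blood progenitors, was measured by 2 probes that disagreed. The brighter read 145, 138, 15.1 and 64.0 and did not pass the test (-0.48 ± 0.52, adjusted p = 0.454), whereas the other read 151, 159, 1.15 and 3.14, was not detected in the duodenum, and gave 3.69 (adjusted p = 1.02e-06). Whether Hoxa9 was expressed in the duodenum therefore depended on the probe.

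The Hox10 genes set lumbar motor neuron identity. Hoxa10 read 198, 229, 1.01 and 1.31, Hoxc10 540, 761, 0.907 and 0.918, and Hoxd10 105, 149, 2.39 and 0.946. All 3 were detected in the spinal cord alone, at least 7.80-fold, 23.5-fold and 4.58-fold higher there (adjusted p = 1.71e-10, 4.96e-24 and 3.57e-06). Group 11, known for the limb bones below the elbow and knee and for the kidney, gave the same picture. Hoxa11, on 10 spots per array, read 175 ± 10.6 and 235 ± 13.03 in the spinal cord and 1.29 ± 0.479 and 1.98 ± 0.996 in the duodenum (mean ± SD over spots of 1 array), with 10 of 10 spots detected in the spinal cord and 0 of 10 in the duodenum. It was at least 7.43-fold higher in the spinal cord (adjusted p = 2.6e-09). Hoxc11 read 75.7, 128, 2.50 and 1.59 and was at least 3.60-fold higher (adjusted p = 0.000247). Hoxd11, at 29.3, 46.2, 1.14 and 1.12, had a limma coefficient of 2.37 ± 0.93 (adjusted p = 0.0213). Its bound was lower, at least 1.35-fold higher, and the WT pair alone gave no bound above 0.

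The genes of groups 12 and 13, which end the clusters and act at the tail, digits, hindgut, skin appendages and genital tract, were at or near background apart from Hoxb13 and Hoxc13 on the KO spinal cord array. Hoxa13, Hoxd12 and Hoxd13 were not detected on any array. Hoxa13 read 1.85, 1.70, 0.966 and 0.897 and Hoxd13 4.87, 4.22, 1.23 and 1.26, all not well above background. Hoxc12 read 5.73, 7.89, 10.3 and 4.21 and was detected on every array but the KO duodenum. Its call towards the duodenum (-2.63 ± 0.92, adjusted p = 0.00917) came from the WT pair (-4.58), while the KO pair gave no bound. The call was lost without the WT duodenum, the WT spinal cord or the KO spinal cord array, and also with spiked-in scaling, with normexp and without the genotype term. Hoxc13 read 5.63, 47.8, 0.975 and 0.989 and did not pass the test (1.40 ± 1.06, adjusted p = 0.262). Hoxb13 was detected on the KO spinal cord array alone, at 4.14, 94.3, 1.07 and 1.04, and did not enter the fit.

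**Figure D3:**
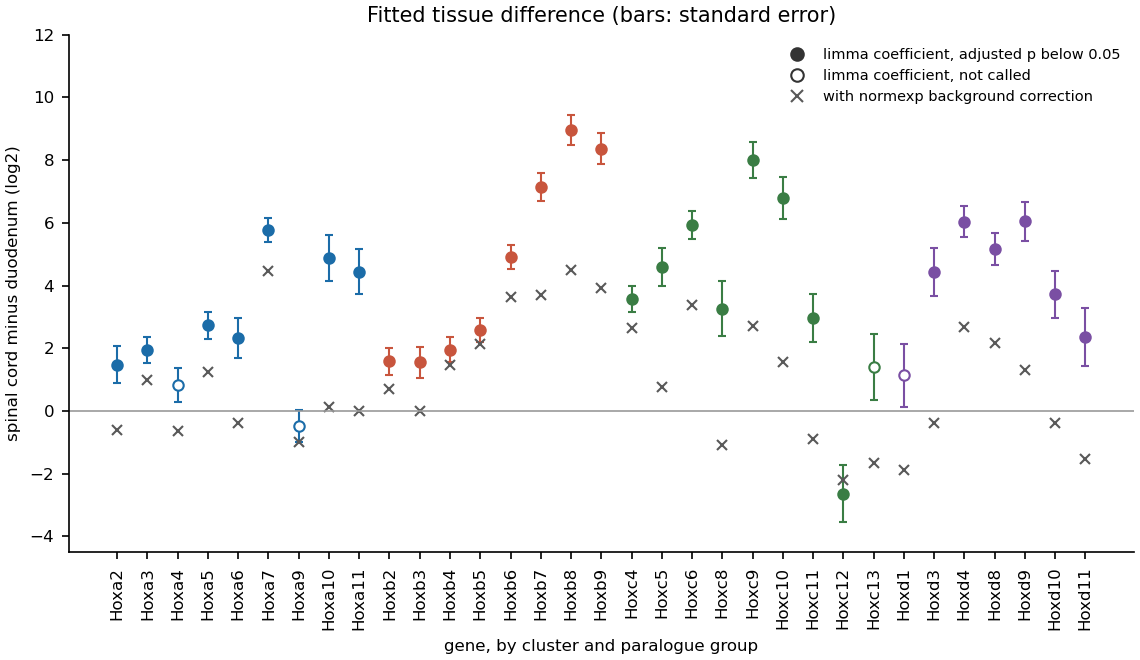
Fitted spinal cord minus duodenum difference on the log2 scale (vertical axis) for the 33 Hox genes that passed the filter, ordered by cluster and paralogue group (horizontal axis; colours are clusters). Circles are limma coefficients over 4 arrays with their standard error, filled where the adjusted p was below 0.05, and crosses are the same coefficients with normexp background correction. HoxA, HoxB and HoxC have their largest differences among groups 7 to 9. In HoxD the coefficients of Hoxd9 (6.05) and Hoxd4 (6.04) are nearly equal. The crosses lie below the circles for all members but Hoxc12.

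Some calls towards the spinal cord depended on a single array or setting. With spiked-in scaling the calls of Hoxa2, Hoxa3, Hoxa5, Hoxa6, Hoxb2, Hoxb3, Hoxb4, Hoxb5 and Hoxc4 were lost. With normexp those of Hoxa2, Hoxa3, Hoxa6, Hoxa10, Hoxa11, Hoxb2, Hoxb3, Hoxc5, Hoxc8, Hoxc11, Hoxd3, Hoxd9, Hoxd10 and Hoxd11 were lost. Without the WT spinal cord array 22 members were called, losing Hoxa2, Hoxa6, Hoxb2, Hoxb3, Hoxc8 and Hoxd11, and without the KO spinal cord array 21 were called, losing these and Hoxc11. Without the KO duodenum array the Hoxb3 call was lost, and Hoxa9 was then called higher in the duodenum.

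The IP6K2 genotypes were compared first over both tissues in the same fit and then within each tissue as 1 array against 1. No Hox gene was called by genotype over both tissues (0 of 33 by limma at an adjusted p below 0.05, against 0.404% of all genes). At an unadjusted p below 0.05 there were 5, Hoxb3, Hoxb7, Hoxc9, Hoxd4 and Hoxd10, and 5.6% of all genes. Of these, Hoxc9 and Hoxd10 were detected on neither duodenum array, and Hoxb7 and Hoxd4 not on the WT duodenum array. Their genotype coefficients thus include scaled values not well above background. The Hoxb3 value is that of its brighter probe alone. A difference between KO and WT within a tissue has no replicate, so it is given as a size, with the technical SD.

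In the spinal cord the differences were small except for Hoxb13 and Hoxc13, 2 of the 4 members of group 13. Hoxa13 and Hoxd13, of the same group, were not detected there. Of the 33 members detected on both spinal cord arrays, 32 differed by less than 2-fold. At least 2-fold higher on the KO array were 2 of the 34 members detected on either array, Hoxb13 and Hoxc13, both of group 13, and none was 2-fold lower; over all genes 2.28% were at least 2-fold higher and 0.892% lower. Hoxb13 went from 4.14, not detected, to 94.3, at least 19.7-fold higher, and Hoxc13 from 5.63 to 47.8, a difference of 2.98 on the log2 scale (technical SD 0.30). With normexp background correction the difference of Hoxc13 was 0.64.

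The signs changed along the clusters without a steady trend, and the rank correlation of the difference with the paralogue group over the 33 members was 0.15. In groups 1 to 6, 15 of 16 members detected on both arrays were higher on the KO array, with a median of 0.18 on the log2 scale. In groups 7 to 9, 8 of 9 were lower, with a median of -0.20, and in groups 10 to 13, 8 of 8 were higher, with a median of 0.40. The median over all genes was -0.04, and these group borders were drawn after the values were seen. Hoxc8 (78.0 to 52.5, -0.67, technical SD 0.11) and Hoxb8 (7065 to 5207, -0.54, technical SD 0.06) fell furthest below 0. Above 0 beside Hoxc13 stood Hoxd1 (0.82, technical SD 0.18), Hoxc11 (75.7 to 128, 0.65, technical SD 0.09) and Hoxd11 (29.3 to 46.2, 0.55, technical SD 0.12). The Hox10 genes gave 0.10 for Hoxa10, 0.39 for Hoxc10 and 0.40 for Hoxd10, and Hoxa11 gave 0.32. The counts were the same when the arrays were scaled by quantiles or by the median; with spiked-in control scaling, which moved the median of all genes to -0.20, they were 9 of 16 higher, 9 of 9 lower and 7 of 8 higher. With normexp 7 of 8 members of groups 10 to 13 were higher.

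The spinal cord arrays also differed in markers of other tissues. Skeletal muscle markers were at least 2-fold higher on the KO array in 8 of 8 cases, and their summed level went from 2.83 to 46.7 times the 75th percentile signal. Schwann cell markers were higher in 5 of 6 cases, at 9.12 and 35.2, blood and marrow markers in 5 of 8, at 244 and 385, and fibroblast markers in 4 of 6, at 6.73 and 15.0. Neuronal markers summed to 324 and 311, and none of the 10 was 2-fold apart. The part of these tissues, or of the cord segments taken, in the Hox values was not tested.

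**Figure D4:**
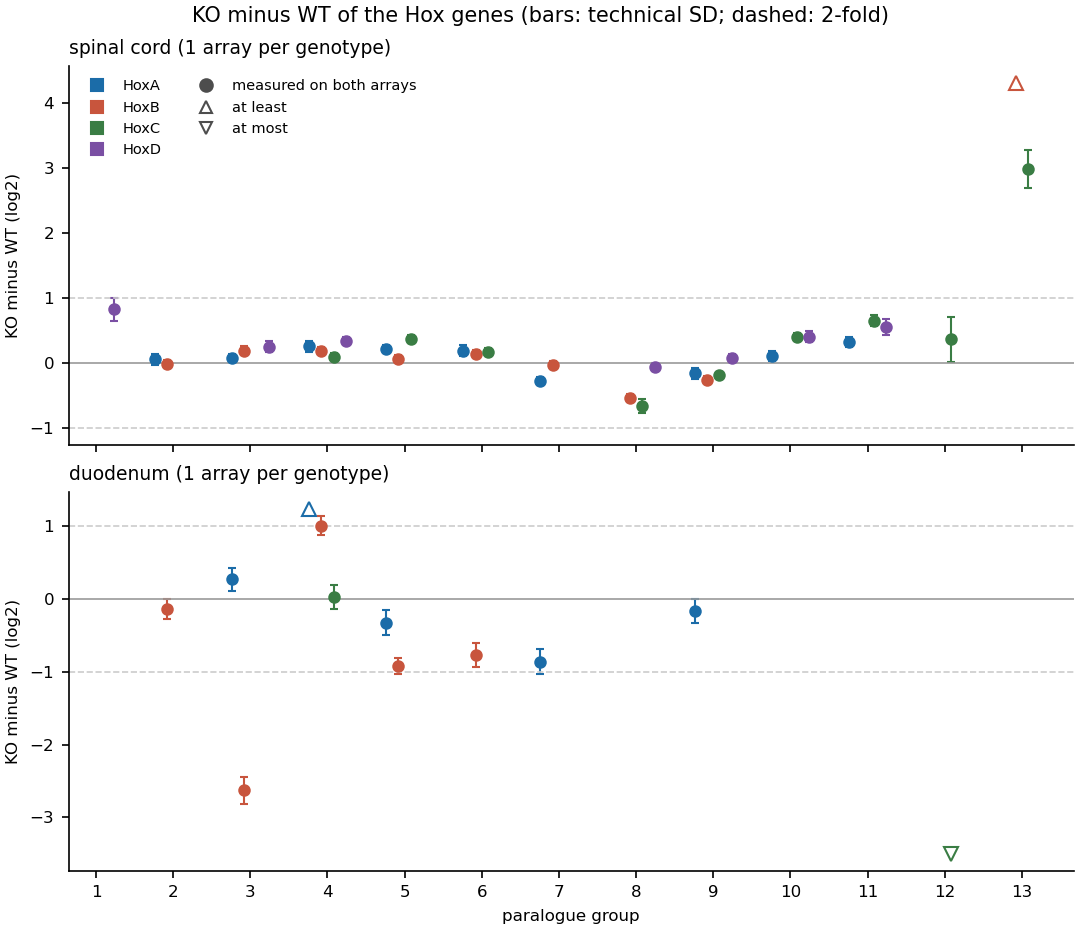
KO minus WT on the log2 scale (vertical axes, ranges differ) for each Hox gene by paralogue group (horizontal axis) and cluster (colour), in spinal cord and duodenum, with 1 array per genotype. Bars are the technical SD, open triangles are bounds and dashed lines mark 2-fold. In the spinal cord, 8 of 9 genes of groups 7 to 9 lie below 0, those of groups 10 to 13 lie above, and Hoxc13 and Hoxb13 stand apart.

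In the duodenum, 10 members were detected on both arrays and 8 of these differed by less than 2-fold. Of the 18 members detected on either array, Hoxa4 and Hoxb4 were at least 2-fold higher on the KO array and Hoxb3 and Hoxc12 at least 2-fold lower, where 7.2% of all genes were at least 2-fold higher and 11.9% lower. Hoxb4 went from 21.3 to 203, a scaled difference of 1.01 (technical SD 0.13), and Hoxa4 from 4.16, not detected, to 48.0, at least 2.35-fold higher. The brighter Hoxb3 probe fell from 19.1 to 14.7, a scaled difference of -2.62 (technical SD 0.19), while the other Hoxb3 probe was detected on the KO array alone, at 15.8 against 1.89. Hoxc12 went from 10.3 to 4.21, not detected, and was at least 11.3-fold lower after scaling. That second probe reached no bound above 0 after scaling, so it gave no direction. Among these 4 genes the direction differed from gene to gene. With spiked-in control scaling, which moved the median of all genes to 2.90, the Hoxb3 value was 0.38 and 16 members were 2-fold apart.

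The other 8 measured members ran from -0.92 for Hoxb5 to 0.27 for Hoxa3. Hoxa7 (-0.86, technical SD 0.17) and Hoxb6 (-0.77, technical SD 0.17) were also lower on the KO array, and Hoxc4 (0.03, technical SD 0.16) lay closest to 0. Detected on the KO array and not on the dimmer WT array were 7 members: Hoxa2, Hoxa4, Hoxa6, Hoxb7, Hoxc6, Hoxd4 and Hoxd8. Apart from Hoxa4, none of these reached a bound above 0 for a difference between the arrays. On the same arrays pancreatic acinar markers summed to 11816 in WT and 4004 in KO (2-fold lower in 6 of 8 cases), blood and marrow markers to 1532 and 88.5 (5 of 6 lower), and smooth muscle markers to 131 and 74.2. Their part in the duodenal Hox values was not tested.

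Genes that work with or around the Hox genes were counted in the same tissue fit. TALE homeodomain proteins bind DNA together with Hox proteins. Of 9 fitted, 3 were called higher in the spinal cord. Pknox2 (1719, 1620, 2.26 and 15.4) was at least 32.4-fold higher in the spinal cord (detected on 1 of the 2 duodenum arrays), and Meis1 (2025, 2314, 20.5 and 227) was 2.33 ± 0.39 and Pbx3 (3198, 3048, 33.1 and 402) 2.10 ± 0.37 higher on the log2 scale. Meis1 and Pbx3 were also higher on the KO than on the WT duodenum array, by 1.23 (technical SD 0.13) and 1.36 (technical SD 0.11).

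The ParaHox genes, sisters of the Hox clusters that set gut and pancreas identity, ran opposite to the Hox genes. Of 4 fitted, 3 were called higher in the duodenum and none in the spinal cord. Cdx2 read 0.902 and 0.885 in the spinal cord and 962 and 4656 in the duodenum, Cdx1 2.94, 2.75, 2203 and 7563, and Pdx1 0.964, 0.975, 73.7 and 225, none of them detected in the spinal cord. They were at least 3059-fold, 5899-fold and 186-fold higher in the duodenum (adjusted p = 2.87e-128, 1.97e-169 and 1.59e-32). Gsx1, a neural ParaHox gene, read 10.4, 14.5, 1.14 and 2.72 and did not pass the test (0.14 ± 1.02, adjusted p = 0.923).

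Polycomb and trithorax proteins keep Hox genes off or on after they have been set. Of 21 fitted, 1 was called higher in the spinal cord, Phc1 (2.06 ± 0.44), and 6 higher in the duodenum, led by Cbx2 (-2.55 ± 0.43), Kmt2d (-1.93 ± 0.47) and Kdm6b (-1.82 ± 0.37). Retinoic acid, made by Aldh1a and broken down by Cyp26 enzymes, switches on low-numbered Hox genes in the embryo. Of 13 fitted genes of this pathway, 2 were called higher in the spinal cord and 7 in the duodenum. The largest differences were those of Aldh1a3 (-6.60 ± 0.43), Cyp26b1 (-4.21 ± 0.37) and Rxra (-4.07 ± 0.50) towards the duodenum and of Crabp1, at least 8.22-fold higher in the spinal cord and detected on 1 of the 2 duodenum arrays.

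Regulators known to act upstream of Hox genes in the embryo gave 1 call higher in the spinal cord among 7 fitted. Fgf8 was called higher in the duodenum, at -2.95 ± 0.64, and Gdf11, which promotes the tail-end Hox code, was not detected in the duodenum and was at least 2.08-fold higher in the spinal cord. Of the genes next to the clusters, 1 of 8 fitted was called, in favour of the spinal cord. This was Evx1, a spinal interneuron factor that lies beside the HoxA cluster, at 152, 215, 1.20 and 1.27, at least 6.62-fold higher there (adjusted p = 5.1e-09). The next in size, Lnpk, Mtx2 and Calcoco1, did not pass the test, with 1.35 ± 0.62, -0.77 ± 0.36 and 0.50 ± 0.53 (adjusted p = 0.0512, 0.0587 and 0.437).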

How the data were processed

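RNA of 4 tissue samples, extracted with Trizol at an RNA integrity number above 7, was hybridised to 1-colour Agilent arrays (1 array per group, 1 slide). The authors deposited, per array, the intensity of each spot from Agilent Feature Extraction (11.5.1.1), as a processed signal corrected for background and spatial trend by that software, and a table of normalized log2 values whose normalization is not given in the sources used here. The processed intensity was the main source and the deposited log2 table an alternative. Spots flagged as outliers were left out, spots of a probe were averaged on the log2 scale, and each array's 75th percentile was subtracted. A gene was represented by its probe with the highest mean. Of 26391 probes with a RefSeq mRNA accession, 25868 were named.

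Tissue and genotype were fitted together with limma 3.58.1 (lmFit, eBayes with trend, R 4.3.3) over 30735 probes well above background on at least 2 of 4 arrays, two-sided with Benjamini-Hochberg adjustment over all of them. Bounds ("at least") set the brighter mean against, per array, the higher of the dim probe's value and the lowest value well above background. KO and WT arrays of a tissue were compared as sizes with no test. The fit was tested on simulated data with noise drawn alike at all brightness levels and no background floor. That test therefore cannot speak for probes near background. Alternatives changed the scaling, the background correction, the filter, the probe rule, the moderation, the genotype term and the fold; leaving out each array was added after the data were seen, without a genotype term, so that a lone array was assumed to vary like the others. All members with a probe are described; of each related list the 4 genes with the largest tissue difference are named, except that some results are not reported here. The members and lists were chosen with earlier results of these data known. The number of arrays limits the precision.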

Additional observations from a re-analysis of the deposited data

Results flagged for a closer look

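By its brighter probe, Hoxb3 differed between KO and WT in opposite directions in the spinal cord and the duodenum. KO minus WT was 0.19 on the log2 scale in the spinal cord (technical SD 0.06) and -2.62 in the duodenum (technical SD 0.19), so the spinal cord difference exceeded the duodenal one by 2.81. With spiked-in scaling the duodenal value changed sign, as given below. The difference of 2.81 was not tested, since each group has 1 array. It came from the brighter Hoxb3 probe. The other probe read 1.89 on the WT duodenum array, not well above background, and 15.8 on the KO array. In the spinal cord the other probe read 310 in WT and 321 in KO. The 75th percentiles of these arrays, 905 and 971, lay further apart in proportion. After scaling, that probe was therefore not higher on the KO spinal cord array.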

How the results depend on the processing

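No block by replicate number could be fitted, since each group has 1 array; the genotype term already sets spinal cord against duodenum within a genotype. The genotype count of 0 held under all alternatives run. The count of members higher in the spinal cord (28) ran from 21 to 29 when an array was left out and was 27 by quantile scaling and with the deposited table, 21 with spiked-in scaling and 24 without the genotype term. It fell to 14 with normexp and to 9 of 10 where all 4 arrays had to be well above background, which fits fewer genes. The count higher in the duodenum (1) was 0 with spiked-in scaling, normexp, the filter on all 4 arrays and no genotype term, and ran from 0 to 2 when an array was left out. With spiked-in scaling Hoxa9 was 2.97 and Hoxc12 0.82. With normexp, which adds an offset of 50 to arrays of unequal brightness, the tissue difference was -0.62 for Hoxa2, -0.65 for Hoxa4, -0.37 for Hoxa6, -0.014 for Hoxa11, -0.00050 for Hoxb3, -1.08 for Hoxc8, -0.90 for Hoxc11, -1.66 for Hoxc13, -1.88 for Hoxd1, -0.40 for Hoxd3, -0.39 for Hoxd10 and -1.52 for Hoxd11, none past the test. The mean of its probes gave 1.61 for Hoxa9, and Hoxc13 ran from -0.092 (without the KO spinal cord array) to 2.89 (without the WT spinal cord array) when an array was left out. Members 2-fold apart in the spinal cord (2) were 1 with normexp, 1 where both arrays had to be well above background and 5 at 1.5-fold. In the duodenum (4) they were 16 with spiked-in scaling, 25 with no filter, 2 with both arrays well above background and 7 at 1.5-fold, and Hoxb3 was 0.38 with spiked-in scaling. The WT duodenum array detected 20 members in place of 11 by the laxer flag of signal significantly above background. Over all genes, 46.9% of tissue calls were towards spinal cord (6622 against 7512), 92.6% with spiked-in scaling (4103 against 327) and 40.7% with normexp (3539 against 5156). The median tissue shift was -0.53, -0.31 by quantiles, -0.39 by the median, -0.30 in the deposited table, -0.63 with normexp and 2.92 with spiked-in scaling. Other causes of these changes were not tested.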

Other observations

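Noncoding transcripts of the clusters, matched by accession, were measured by the same arrays. Hoxa11os, transcribed opposite Hoxa11, read 349, 397, 4.37 and 6.92 in WT spinal cord, KO spinal cord, WT duodenum and KO duodenum, was detected on 1 of the 2 duodenum arrays, and was at least 10.7-fold higher in the spinal cord (limma, adjusted p = 6.41e-09). Hoxd3os1 read 148, 165, 1.14 and 1.30 and was at least 5.71-fold higher there (adjusted p = 4.69e-08), with neither duodenum array well above background. Both lay on the same side as the neighbouring protein-coding members Hoxa11 and Hoxd3.

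Among the regulators upstream of the Hox genes, Egr2, a hindbrain and Schwann cell factor, read 32.3 on the WT and 200 on the KO spinal cord array (2.53 on the log2 scale), and T, the mesoderm factor Brachyury, read 14.8 and 7.80 (-1.02). These were the members of that list at least 2-fold apart in the spinal cord.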
